A study of Mus musculus with 4 samples.

Results

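The heat shock, DNAJ and CCT chaperone genes of B16F10 mouse melanoma cells were compared between cells with reduced Lmna and control cells. Members were the rows of the count table whose symbol marks an HSP70 or HSP110 protein (Hspa, Hsph) or an HSP90 of the cytosol (Hsp90a). The mitochondrial chaperonin (Hspd1, Hspe1), J-domain proteins (Dnaja, Dnajb, Dnajc) and CCT chaperonin subunits (Tcp1, Cct) were also taken. So were all Hspb symbols, grouped as small heat shock proteins by symbol alone. Hspa5, Dnajb9 and Dnajc3, which belong to the unfolded protein response of the endoplasmic reticulum, were left out. The rule took 78 of 24421 genes and used no measured value. Both groups were transduced with lentivirus and selected with puromycin, shControl with the empty pLKO.5-puro vector and shLmna with a hairpin against exon 8 of Lmna, which encodes lamins A and C. There were 2 bulk MARS-seq libraries per group (n = 2 throughout), each counting the 3′ ends of transcripts. shLmna is a line made with 1 hairpin, and an effect of carrying any hairpin cannot be told apart from that of Lmna. The sources do not say whether replicate libraries stem from independent transductions, so p-values measure the spread between libraries, which may be technical.

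Molecular chaperones bind unfolded proteins and help them fold, refold or reach their compartment. HSP70 proteins hold short stretches of a client in a cycle of ATP hydrolysis that J-domain proteins start and that nucleotide exchange factors such as the HSP110 proteins end. HSP90 finishes the folding of kinases and steroid receptors, CCT encloses actin and tubulin in a chamber built of paired rings, and small heat shock proteins keep unfolding proteins soluble. In stress, the transcription factor HSF1 binds the heat shock element, repeats of the unit GAA and its reverse complement TTC. It raises part of this set, while other members are made constantly.

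Library totals ran from 2494880 to 3808843 counts, and the chaperone genes took 1.59% to 1.79% of each. Lmna had 2826 and 2684 counts in the shControl libraries against 331 and 480 in the shLmna libraries, a log2 change of −2.61 (SE 0.14, edgeR quasi-likelihood adjusted p = 7.9e-06), lower in the libraries labelled shLmna. All 7 markers of the melanocyte lineage were counted, with a sum of 20117 to 24602 CPM (counts relative to the library total, scaled by TMM), though Tyr held only 1 to 7 counts per library and Sox10 went from 1574 and 1851 CPM in the controls to 843 and 1002. Of 13 markers of fibroblasts, leukocytes, endothelium and keratinocytes, 9 were at 0 in all 4 libraries and the rest summed to 1.58 to 5.09 CPM. In bulk RNA a change per cell cannot be told apart from a change in the mix of cells within a line.

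The promoters that hold the fullest heat shock elements among the 63 members with a listed promoter are shown here. This element is the known binding site of HSF1. Sequences are RefSeq promoters of GRCm38.p6, from 250 bases before a start to 50 after it, given 5′ to 3′ on the gene's strand, with capitals for the matched units. Hspd1 and Hspe1 stand head to head and share 1 element, so it is printed once, on the strand of Hspe1.
Hspe1 (chr1:55087898-55088197, plus strand): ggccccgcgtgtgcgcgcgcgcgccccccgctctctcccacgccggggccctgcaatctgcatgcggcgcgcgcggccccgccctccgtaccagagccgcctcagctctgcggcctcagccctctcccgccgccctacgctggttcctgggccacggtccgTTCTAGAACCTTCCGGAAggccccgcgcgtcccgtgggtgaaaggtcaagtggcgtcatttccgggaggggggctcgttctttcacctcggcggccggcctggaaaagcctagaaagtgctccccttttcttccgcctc
Hsph1 (chr5:149636266-149636565, minus strand): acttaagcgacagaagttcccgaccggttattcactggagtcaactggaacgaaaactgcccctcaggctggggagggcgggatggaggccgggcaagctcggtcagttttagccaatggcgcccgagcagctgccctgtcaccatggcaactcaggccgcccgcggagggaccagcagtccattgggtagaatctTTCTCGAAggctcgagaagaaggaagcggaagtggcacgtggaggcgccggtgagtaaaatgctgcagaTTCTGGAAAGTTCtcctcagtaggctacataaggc
Dnajb6 (chr5:29735648-29735947, plus strand): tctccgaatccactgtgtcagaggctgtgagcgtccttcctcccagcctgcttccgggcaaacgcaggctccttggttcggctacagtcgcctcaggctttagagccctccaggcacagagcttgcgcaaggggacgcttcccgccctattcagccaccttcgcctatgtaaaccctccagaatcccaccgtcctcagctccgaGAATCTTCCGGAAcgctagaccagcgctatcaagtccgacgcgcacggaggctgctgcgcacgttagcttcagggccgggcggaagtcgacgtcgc
A single pair of units was present in the promoters of 2 members that fell in shLmna, each at 1 of 2 listed starts.
Dnajb4 (chr3:152193796-152194095, minus strand): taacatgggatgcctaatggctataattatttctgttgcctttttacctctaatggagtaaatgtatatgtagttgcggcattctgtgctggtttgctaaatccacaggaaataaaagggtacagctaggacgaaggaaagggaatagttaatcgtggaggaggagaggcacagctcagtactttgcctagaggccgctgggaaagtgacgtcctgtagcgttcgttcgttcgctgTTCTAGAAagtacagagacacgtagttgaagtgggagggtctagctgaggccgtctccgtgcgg
Hspb6 (chr7:30553051-30553350, plus strand): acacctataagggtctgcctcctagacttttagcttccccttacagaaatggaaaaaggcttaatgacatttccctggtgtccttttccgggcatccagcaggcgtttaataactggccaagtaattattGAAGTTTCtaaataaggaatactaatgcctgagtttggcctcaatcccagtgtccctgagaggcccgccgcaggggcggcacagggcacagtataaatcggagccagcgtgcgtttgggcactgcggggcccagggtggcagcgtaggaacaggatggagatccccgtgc
The motifs searched were the pairs GAANNTTC and TTCNNGAA, each its own reverse complement, so that both strands were read at once, and runs of 3 units that alternate with 2 bases between them. A run of 3 units holds overlapping pairs.

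Few chaperone genes passed the test between the groups. Of the 78 members, 12 had no count in any library, 10 were counted but too low to test, and 56 were tested among 9150 genes. Of these 56, 5 were lower in shLmna at an adjusted p under 0.05 (8.93%), against 9.74% of all tested genes, and 2 were higher (3.57%), against 5.48%. All 5 lower members, Hspa13, Dnajb4, Dnajc9, Dnajc21 and Hspb6, also passed limits of 1 on the log2 fold change and 5 on the mean normalized count, as 5.88% of all genes did. Neither higher member, Hspa4 or Cct4, did so, and 1.76% of all genes were higher by those limits. The median log2 change was −0.01 over the tested members and −0.00 over all tested genes, and 46 of 56 members lay within 0.5 of 0 in either direction. Both shLmna libraries were below both shControl libraries for 18 members (32.1%; all genes 30.6%) and above them for 17 (30.4%; all genes 29.5%). The shares of the members therefore lay near those of the whole table.

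**Figure D1:**
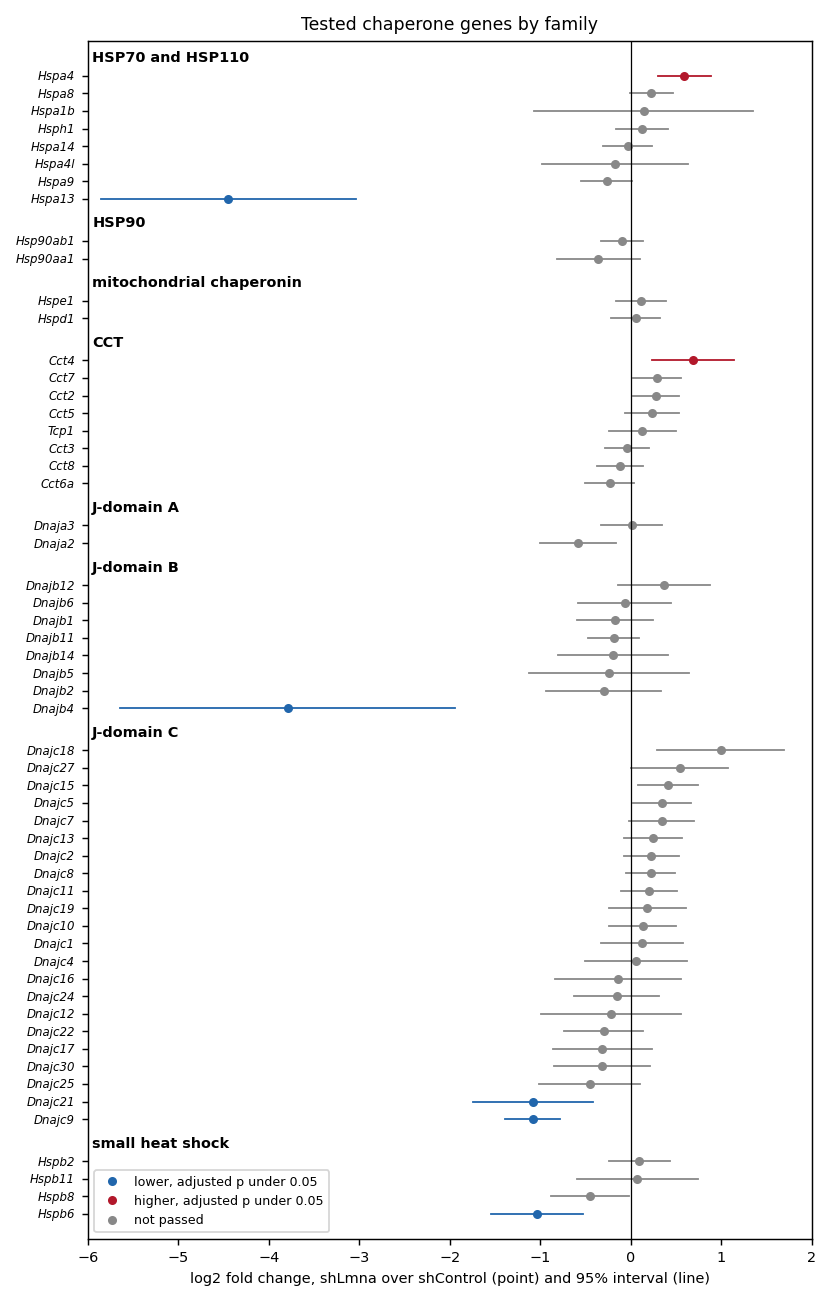
Log2 change of shLmna over shControl for the 56 tested chaperone genes, grouped by family, as points with 95% intervals as lines. Most points lie near 0, the 5 blue genes passed as lower and the 2 red genes passed as higher.

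The counts depend on single libraries. Without shControl 1, 7 members passed as lower and 6 as higher, and without shControl 2 the numbers were 4 and 4, of which 2 in each direction passed all 3 limits (Hspa13 and Dnajb4 as lower, Cct4 and Hspb1 as higher). Without shLmna 1, 4 passed as lower and 0 as higher by edgeR, and without shLmna 2, 2 passed as lower and 0 as higher. Over all tested genes the shares lower and higher were 13.8% and 8.04% without shControl 1, 8.75% and 6.04% without shControl 2, 4.51% and 1.23% without shLmna 1, and 4.35% and 0.935% without shLmna 2, so they moved with the members. With all libraries 15 members had an unadjusted p under 0.05 (26.8%), against 30.1% of all tested genes.

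Among the HSP70 and HSP110 proteins, 8 of 13 were tested. Of these, 1 fell (12.5%, against 9.74% of all tested genes) and 1 rose (12.5%, against 5.48%). Hspa8, the constant HSP70 of the cytosol, was the member with the most counts, with 10285 and 10154 in the control libraries and 8407 and 13145 after knockdown. Its level was 2952 ± 330 CPM (SD) in shControl and 3453 ± 181 in shLmna, and both shLmna libraries were above both shControl libraries. The log2 change of Hspa8 was 0.23, with a 95% interval of −0.01 to 0.47 and an adjusted p of 0.191 by edgeR. Of the 31-base stretches in the counted end of Hspa8, 96.7% also occur in transcripts of other genes, so its count is uncertain. Without shControl 1 its adjusted p was 0.0368.

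Hspa4, an HSP110 protein that exchanges nucleotide on HSP70, rose. It had 92.9 and 89.7 CPM in the shControl libraries and 129 and 146 CPM in the shLmna libraries, so the groups did not overlap. The log2 change was 0.59 (SE 0.13, edgeR adjusted p = 0.0136), 1.51-fold higher, and the gene lies on chromosome 11 from 53259814 to 53300479 (GRCm38.p6). The adjusted p was 0.0552 without shLmna 1 and 0.152 without shLmna 2. The other HSP110 genes gave different values. Hsph1 had 189 and 159 CPM in shControl and 186 and 192 in shLmna, a log2 change of 0.12 with an interval of −0.17 to 0.41, and Hspa4l had −0.17 with an interval of −0.98 to 0.63. The differences between these 3 genes were not tested.

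Hspa13 (Stch), an HSP70-like ATPase of the microsomes, had the most negative log2 change of the tested members with all 4 libraries. The shControl libraries held 24 and 56 counts, and the shLmna libraries 1 and 2. Both shControl libraries were far above the others, though they differed from each other more than those of most members. The ratio of shControl to shLmna, scaled by depth, was 23.7 with an exact 95% counting interval of 7.84 to 118, which covers counting error only. The fitted log2 change was −4.45 (SE 0.63, edgeR adjusted p = 0.00138), and it depends on the prior count because shLmna held only 3 counts. Hspa13 passed under all 12 alternatives tried. The gene lies on chromosome 16, from 75755190 to 75767276 (GRCm38.p6).

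The stress-inducible HSP70 genes were at the edge of detection. Hspa1a had no count in any library, which allows up to 0.803 to 1.19 CPM. Stretches that occur in other genes make up 25.6% of its counted end, so this limit and the count of 0 are uncertain. Hspa1b had 22 and 11 counts in the shControl libraries against 7 and 27 in the shLmna libraries. The groups overlapped, and the 95% interval of the log2 change of Hspa1b, −1.06 to 1.35, leaves room for a doubling in either direction. Of the stretches in its counted end, 30.9% occur in other genes. Hspa9, the HSP70 of mitochondria, had 331 and 325 CPM in shControl and 255 and 290 in shLmna. Its log2 change was −0.27 (edgeR adjusted p = 0.185). Hspa9 passed as lower under 2 of 12 alternatives. These were a correction for GC content (−0.40, edgeR adjusted p = 0.0493) and limma on the batch-corrected values (−0.15, adjusted p = 0.0453). Hspa14, which works at the ribosome, had a log2 change of −0.04 with an interval of −0.30 to 0.23.

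The cytosolic HSP90 genes did not pass. Hsp90ab1, the constant form, had 2563 and 2266 CPM in shControl and 2305 and 2221 in shLmna, a log2 change of −0.09 with an interval of −0.33 to 0.14. Hsp90aa1, the inducible form, had 56.1 and 88.4 CPM in shControl and 55.0 and 58.0 in shLmna, so that shControl 1 lay among the shLmna values and shControl 2 above them. Its log2 change was −0.36 (edgeR adjusted p = 0.283), and it was −0.64 without shControl 1, where it passed, and 0.01 without shControl 2. Per kilobase of counted transcript end, the shControl level was 2195 CPM for Hsp90ab1 and 65.6 CPM for Hsp90aa1. Of the stretches in the counted ends, 23.9% for Hsp90ab1 and 4.12% for Hsp90aa1 occur in other genes.

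Neither gene of the mitochondrial chaperonin passed. Hspd1 (HSP60), whose rings form the folding chamber, had 972 and 1031 CPM in shControl and 958 and 1120 in shLmna. Hspe1 (HSP10), its lid, had 1164 and 1420 CPM in shControl and 1360 and 1435 in shLmna. The groups overlapped for both genes. Log2 fold changes were 0.05 with an interval of −0.21 to 0.32 for Hspd1 and 0.11 with an interval of −0.16 to 0.39 for Hspe1. The CPM of Hspe1 divided by that of Hspd1 was 1.20 and 1.38 in the shControl libraries and 1.42 and 1.28 in the shLmna libraries. Of the stretches in the counted ends, 43.4% for Hspd1 and 59.1% for Hspe1 occur in other genes.

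The CCT chaperonin has 8 subunits in each ring, and all 8 of the genes Tcp1 to Cct8 in their common form were tested. By edgeR 1 was higher (12.5%, against 5.48% of all tested genes) and 0 were lower (all genes 9.74%). An unadjusted p under 0.05 was seen for 3 (37.5%, against 30.1% of all tested genes). Cct6b and Cct8l1 had no count. Summed over the 8 subunits the level was 6005 and 5909 CPM in the shControl libraries and 6613 and 6512 CPM in the shLmna libraries. Both shLmna sums were higher than both shControl sums. By subunit, both shLmna libraries were above both shControl libraries for 4 (50%; all genes 29.5%). They were below them for 3 (37.5%; all genes 30.6%), and the groups overlapped for 1. Cct7 alone made up 33.6% and 28.3% of the sum in shControl and 35.2% and 33.5% in shLmna. The median log2 change of the subunits was 0.18, with values from −0.23 for Cct6a to 0.69 for Cct4.

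Cct4 (chromosome 11, 22990593 to 23003336, GRCm38.p6) was the subunit that rose. It had 122 and 205 CPM in shControl and 267 and 261 in shLmna. The shLmna libraries were close to each other and above both shControl libraries, which differed by 0.74 on the log2 scale. The log2 change of Cct4 was 0.69 (SE 0.20, edgeR adjusted p = 0.0469). It was 1.11 without shControl 2, and 0.37 with an adjusted p of 0.0729 without shControl 1, while the adjusted p was 0.184 without shLmna 1 and 0.192 without shLmna 2. With a correction for GC content the log2 change was 0.59 (edgeR adjusted p = 0.0741). Per kilobase of counted end, Cct4 had the lowest shControl level of the 8 subunits, 149 CPM, and Cct7 the highest, 1677 CPM. Cct4 made up 2.04% and 3.46% of the summed subunit CPM in shControl, and 4.04% and 4.01% in shLmna.

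The other subunits did not pass. Cct7 had 2019 and 1670 CPM in shControl and 2327 and 2178 in shLmna, a log2 change of 0.29 (edgeR adjusted p = 0.132). Cct2 had 649 and 644 CPM in shControl and 805 and 760 in shLmna, a log2 change of 0.28 (adjusted p = 0.132). Both had higher values in both shLmna libraries. Log2 fold changes were 0.23 for Cct5, 0.13 for Tcp1, −0.04 for Cct3, −0.12 for Cct8 and −0.23 for Cct6a. The shControl libraries of Tcp1 differed by 0.51 on the log2 scale, and 57.9% of the stretches in its counted end occur in other genes. Cct7 passed without shControl 1.

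**Figure D2:**
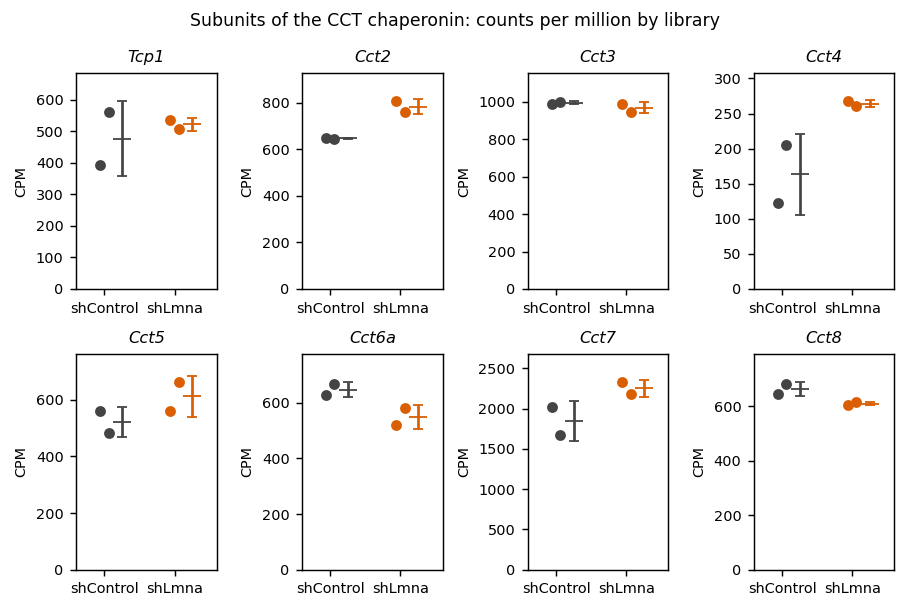
CPM (linear axis from 0) of the 8 CCT subunits in each library as points, with the mean and SD of each group (n = 2) beside them. Cct4 is at 122 and 205 CPM in shControl and at 267 and 261 CPM in shLmna, and the shControl libraries of Tcp1 and Cct4 lie apart.

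J-domain proteins fall into 3 classes. In the A class, which resembles bacterial DnaJ most closely, 2 of 4 were tested and neither passed. Dnaja2 had 51.4 and 57.8 CPM in shControl and 30.5 and 41.7 in shLmna. Both shLmna libraries were lower, with a log2 change of −0.58 (SE 0.19, edgeR adjusted p = 0.0686), and Dnaja2 passed without shControl 1. Dnaja3, of mitochondria, had a log2 change of 0.01 with an interval of −0.33 to 0.35. Dnaja1 had counts of 4, 0, 1 and 0, and 61.2% of the stretches in its counted end occur in other genes.

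In the B class, 8 of 12 genes were tested and 1 fell (12.5%, against 9.74% of all tested genes). Dnajb4, a cytosolic partner of HSP70, had 14 and 21 counts in the shControl libraries against 2 and 0 in the shLmna libraries. The groups were apart, at a level near the limit of detection. The ratio of shControl to shLmna was 15.6 with an exact 95% counting interval of 4.002 to 134, which covers counting error only. The fitted log2 change was −3.79 (SE 0.83, edgeR adjusted p = 0.0137), and it depends on the prior count because shLmna held only 2 counts. It was −7.15 without shLmna 1, and −2.59 with an adjusted p of 0.163 without shLmna 2. For Dnajb4 the log2 change was −3.83 in DESeq2 (adjusted p = 0.0990) and −2.79 with the GC correction in edgeR (adjusted p = 0.0587). Dnajb1 (HSP40), the main inducible J-domain protein of the cytosol, had 40.6 and 37.5 CPM in shControl and 30.5 and 38.1 in shLmna. Its log2 change was −0.17 with an interval of −0.60 to 0.25. Dnajb6, which keeps polyglutamine proteins from aggregating, had −0.07 with an interval of −0.58 to 0.45, and Dnajb11, of the endoplasmic reticulum, had −0.19 (edgeR adjusted p = 0.343).

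The C class shares only the J domain and holds proteins of many functions. Here 22 of 27 genes were tested. By edgeR 2 fell (9.09%, against 9.74% of all tested genes) and 0 rose (all genes 5.48%). An unadjusted p under 0.05 was seen for 6 (27.3%, against 30.1% of all tested genes). Dnajc9, a chaperone that also binds histones H3 and H4, had 150 and 172 CPM in shControl and 71.6 and 80.1 in shLmna. Each group was tight and the groups lay far apart. The log2 change of Dnajc9 was −1.08 (SE 0.14, edgeR adjusted p = 0.000686), 2.12-fold lower in shLmna, and it passed under all 12 alternatives. Dnajc9 lies on chromosome 14, from 20384638 to 20388910 (GRCm38.p6). Dnajc21, which takes part in the maturation of the large ribosomal subunit, had 32.8 and 48.5 CPM in shControl and 25.3 and 14.2 in shLmna. The groups did not overlap, but the libraries within each differed by over 0.5 on the log2 scale. The log2 change of Dnajc21 was −1.08 (SE 0.29, edgeR adjusted p = 0.0357). Its adjusted p was 0.0654 without shControl 2 and 0.267 without shLmna 2, where the log2 change was −0.67. The log2 change was −1.05 in DESeq2 (adjusted p = 0.0938), −0.29 in limma on the batch-corrected values (adjusted p = 0.0634) and −0.81 with the GC correction in edgeR (adjusted p = 0.0838).

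Of the 22 tested genes of the C class 13 had a positive and 9 a negative log2 change, and 20 did not pass. Dnajc18, a membrane protein of the endoplasmic reticulum, had 7.12 and 7.76 CPM in shControl and 18.6 and 11.7 in shLmna, a log2 change of 0.99 (edgeR adjusted p = 0.0627). Dnajc15, of mitochondria, had 0.41 (edgeR adjusted p = 0.0981). Dnajc7, which binds HSP70 and HSP90 together, had 274 and 196 CPM in shControl and 308 and 288 in shLmna, a log2 change of 0.34 (edgeR adjusted p = 0.185). Dnajc5 (cysteine string protein), of secretory vesicles, had 0.35 (adjusted p = 0.143), and Dnajc2, of the ribosome, had 0.23 (adjusted p = 0.300). Dnajc8, which associates with the spliceosome, had 0.22 (edgeR adjusted p = 0.259). On the negative side Dnajc25 had −0.46, Dnajc30 −0.32, Dnajc17 −0.31 and Dnajc22 −0.30, with adjusted p-values from 0.256 to 0.433 in edgeR. Without shControl 1, Dnajc5, Dnajc7 and Dnajc15 passed as higher.

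Of the 8 members with an Hspb symbol, grouped here as small heat shock proteins, 4 were tested. Of these, 1 fell (25%, against 9.74% of all tested genes). Hspb6 (HSP20) had 29.1 and 31.1 CPM in shControl and 12.7 and 16.3 in shLmna, and the groups did not overlap. The log2 change of Hspb6 was −1.04 (SE 0.23, edgeR adjusted p = 0.0138), 2.05-fold lower in shLmna. The adjusted p was 0.109 without shLmna 1, 0.0550 without shLmna 2 and 0.102 in DESeq2, with log2 changes of −0.87 to −1.23 without a single library and −1.04 in DESeq2. Hspb8, which acts with Bag3 in selective autophagy, had 34.7 and 42.6 CPM in shControl and 28.1 and 28.6 in shLmna, a log2 change of −0.45 (edgeR adjusted p = 0.153). Hspb2, the most abundant of the group here, had a log2 change of 0.10 with an interval of −0.24 to 0.43, and 29.9% of the stretches in its counted end occur in another gene. Hspb1 (HSP25) was too low to test, with 1 and 4 counts in the shControl libraries against 6 and 18 in the shLmna libraries, and 65.4% of its stretches are shared. Tested without the filter on low counts, Hspb1 had a log2 change of 2.34 and passed as higher by all 3 limits.

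**Figure D3:**
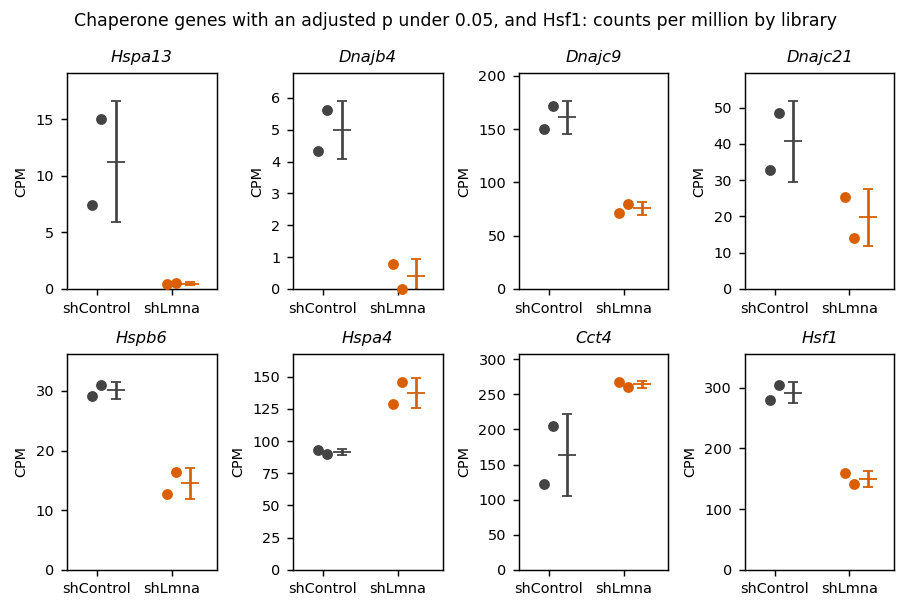
CPM (linear axis from 0, which cuts the lower SD bar of Dnajb4) in each library as points, with the mean and SD of each group (n = 2), for the 7 chaperone genes that passed and for Hsf1. In each panel the shLmna libraries lie on 1 side of the shControl libraries, with 0.396 and 0.545 CPM for Hspa13 in shLmna.

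Of the members that could not be tested, 12 had no count at all: Cct6b, Cct8l1, Dnaja4, Dnajb3, Dnajb7, Dnajb8, Dnajc5g, Dnajc6, Hspa12a, Hspa1a, Hspa1l and Hspb3. Stretches that also occur in other genes made up 100% of the counted end of Dnaja4 and 51.8% of that of Dnajb8. The share was 44.9% for Hspa1l and 25.6% for Hspa1a, so a count of 0 is uncertain for all of these genes. The other 10 were Hspb1, Dnaja1, Dnajb13, Dnajc14, Dnajc28, Dnajc5b, Hspa12b, Hspa2, Hspb7 and Hspb9, none with more than 18 counts in a library. Dnajb13, of sperm and cilia, held 7 and 8 counts in the control libraries and 0 and 3 after knockdown. The ratio was 4.45 with an exact 95% counting interval of 1.26 to 24.0, which covers counting error only. Of the stretches in the counted end of Dnajb13, 28.4% occur in other genes. Hspa2, the HSP70 of the testis, held 11 and 6 counts in the control libraries and 6 and 5 after knockdown, and Dnajc28 held 3 and 5, then 1 and 10.

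A list of 40 regulators and co-chaperones was read beside the members. Of the 38 tested, 4 were lower (10.5%) and 2 were higher (5.26%), near the shares of all tested genes. Hsf1, the heat shock transcription factor, had 904 and 1136 counts in the shControl libraries against 403 and 516 in the shLmna libraries. It fell, with a log2 change of −0.96 (SE 0.13, edgeR adjusted p = 0.000903), and it passed under all 12 alternatives. Hsf2 had 13 and 8 counts in the shControl libraries against 25 and 11 in the shLmna libraries (edgeR adjusted p = 0.307).

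Among cofactors of HSP90, Ptges3 (p23) fell from 260 and 327 counts to 105 and 92, a log2 change of −1.37 (SE 0.21, edgeR adjusted p = 0.00245). Cdc37l1, related to the kinase adaptor Cdc37, rose from 59 and 65 counts to 83 and 103, a log2 change of 0.76 (adjusted p = 0.0390). Cdc37l1 did not pass in DESeq2 (adjusted p = 0.272) or with the GC correction in edgeR (adjusted p = 0.0720). Stip1 (HOP), which joins HSP70 to HSP90, and Fkbp4 each had −0.00. No nucleotide exchange factor or other HSP70 partner among 11 tested passed in edgeR, where 9.74% of all tested genes were lower and 5.48% higher. Of the 11, 4 (36.4%) had an unadjusted p under 0.05, against 30.1% of all tested genes.

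Prefoldin, a complex that hands actin and tubulin to CCT, gave opposite values among its subunits. Vbp1 (prefoldin subunit 3) fell from 146 and 185 counts to 4 and 4, a log2 change of −5.15 (SE 0.31, edgeR adjusted p = 1.02e-05). Pfdn4 rose from 132 and 198 counts to 169 and 287, a log2 change of 0.63 (adjusted p = 0.0362), and did not pass in DESeq2. Pfdn1, Pfdn2, Pfdn5 and Pfdn6 did not pass, with log2 fold changes from −0.11 to 0.16. Pdcl, a phosducin-like cofactor of CCT, fell from 42 and 106 counts to 16 and 12, a log2 change of −2.17 (edgeR adjusted p = 0.0101), and with the GC correction this was −0.21 (adjusted p = 0.763). Pdcl did not pass without shLmna 2, nor did Pfdn4 without shControl 1, shLmna 1 or shLmna 2, nor Cdc37l1 without shControl 2, shLmna 1 or shLmna 2.

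The heat shock element was searched for in all listed promoters. A pair of units was found for 20 of 63 members with a listed promoter (31.7%), against 17.0% of 27025 genes. A run of 3 units was found for 4 members (6.35%), Hspd1, Hspe1, Hsph1 and Dnajb6, against 0.662% of genes. All 4 were tested and none passed in edgeR (0 at an unadjusted p under 0.05), with a median log2 change of 0.08, while of 44 tested genes with such a run 6 were lower and 1 higher, with a median of −0.10. Of the 13 tested members with a pair, 2 fell, Dnajb4 and Hspb6, and 0 rose, with a median of 0.11, and of 29 tested members whose listed promoter has no pair 2 fell and 1 rose. Over the 956 tested genes with a pair, 105 (11%) were lower and 4.92% higher, and over the 44 with a run 13.6% and 2.27%. Over all tested genes 9.74% were lower and 5.48% higher. Whether the element goes with a change was not tested. These matches describe letters in a window and show no binding. Hspa13, Cct4, Hspa8, Hspa9, Hsp90aa1 and Hsp90ab1 were among the members with no listed promoter, so they were not searched.

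Lower calls took a larger share at low GC content in the whole table and, over only 5 lower genes, among the members. The GC content of the last 1000 transcript bases, the part counted, was 42% or less for 15 tested members, of which 3 were lower (20.0%), and above it for 41, of which 2 were lower (4.88%). Over all tested genes the shares were 19.3% of 2514 and 6.01% of 6294. The Spearman correlation of GC content with the log2 change was 0.19 over the tested members and −0.0154 over all tested genes. Hspa13 had 34% GC, Dnajb4 33.1% and Dnajc21 37.0%, against 42.1% for Dnajc9 and 53.7% for Hspb6. With a correction for GC content in the fit, the log2 change was −3.59 for Hspa13 (edgeR adjusted p = 0.00357) and −1.23 for Dnajc9 (adjusted p = 0.000382), and Hspb6 (−1.10, adjusted p = 0.0110) and Hspa4 (0.44, adjusted p = 0.0407) also passed in edgeR. Hspa9, which did not pass in the main test, passed as lower with the correction (−0.40, edgeR adjusted p = 0.0493). Dnajb4 (−2.79), Dnajc21 (−0.81) and Cct4 (0.59) kept their direction and did not pass. The 317 tested genes with 34% GC or less, which include Hspa13, Dnajb4, Vbp1 and Pdcl, had a median log2 change of −1.20. With the correction this median was 0.02. The correction did not level all bins, since the median log2 change of the 830 genes with 34% to 38% GC, which include Dnajc21, went from −0.11 to 0.26. At 42% to 50% GC, where Dnajc9 lies, the median went from 0.0651 to −0.0836. Above 50%, where Hspb6 lies, it went from −0.0468 to −0.0911. Over all tested genes the median went from −0.0011 to −0.0693, so values with the correction are offset downward in the table at large. The counted ends of the partner genes that fell held 31.3% GC for Vbp1, 28.8% for Pdcl, 36.8% for Ptges3 and 56.3% for Hsf1. The part of base composition in these results was not otherwise tested.

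**Figure D4:**
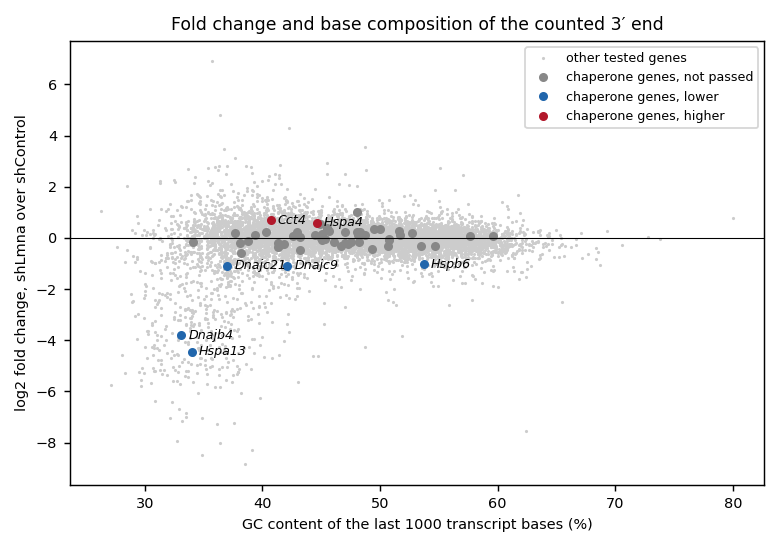
GC content of the last 1000 transcript bases in percent against the log2 change of shLmna over shControl, for all tested genes (small grey points) and for the chaperone genes (large points, the 7 that passed named). Strongly negative values gather at low GC, where Dnajb4 at 33.1% and Hspa13 at 34% lie, and Hspb6 is at 53.7%.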

How the data were processed

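RNA of B16F10 cells was profiled by bulk MARS-seq in 2 shControl and 2 shLmna libraries, grouped by their titles. According to the study's methods and the submitters' processing notes, the authors trimmed reads with cutadapt, aligned them to mm10 with STAR 2.4.2a, marked duplicates of a molecular identifier (UMI), and counted UMIs with a modified HTSeq over the last 1000 bases of RefSeq genes and 100 bases downstream. The authors deposited raw counts per gene symbol, the input of every main test. Whether this matrix holds UMI counts, and whether counting used strand, is not given in the sources used here. Another deposited file gave, for each library, a signal equal to counts over a size factor, from which whole counts were recovered for 100% of values. The matrix exceeded these by a factor of 1.08 to 1.09. That file also held the authors' p-values, which were not used. The last file held deposited log2 values after ComBat correction by the authors for batches that are not named.

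Testing used quasi-likelihood in edgeR 4.0.16 (R 4.3.3; glmQLFit, glmQLFTest, TMM, filterByExpr, group as the 1 term), two-sided, adjusted by Benjamini-Hochberg over 9150 genes, with the study's limits (adjusted p under 0.05, log2 fold change over 1, mean normalized count over 5). CPM are mean ± SD. The shControl libraries totalled 3262632 and 3808843 counts and the shLmna libraries 2494880 and 3657167, where 3 counts equal 0.803 to 1.19 CPM. Replicates differed by more than sampling noise (chi-square per degree of freedom 6.96 and 3.91) and were counted separately. The script was tested on simulated data. GC content and 31-base stretches shared with other genes' transcripts came from GENCODE M21, either strand, and promoters and positions from RefSeq GRCm38.p6. Of the 56 tested members, 13 had 10% or more of their stretches shared and 5 had 40% or more. Alternatives were RLE size factors, library totals, no filter, DESeq2 1.42.0, a replicate block, recovered counts, limma 3.58.1 on the log2 values, a loess GC correction (span 0.2) and leaving out each library.

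Genes named are Lmna, members and listed partners with an adjusted p under 0.05, the most abundant member of each family and a list of well known members. Dnajb13, Dnajc15, Dnajc17, Dnajc18, Dnajc22, Dnajc25, Dnajc28, Dnajc30, Hspa2, Hspa4l, Hsf2, Stip1, Fkbp4 and the other prefoldin subunits were named after their values were seen. The members and lists were chosen with earlier results of these data known.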

Additional observations from a re-analysis of the deposited data

How the results depend on the processing

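RLE size factors, library totals and recovered counts left the number of members passing in each direction within 1.5 times that of the main test, and each kept the same 7 genes. Without the filter on low counts 6 of 66 members passed as lower and 4 as higher, 1 of the higher ones by all 3 limits. With the replicate block, 6 passed as higher and 6 as lower, including the 7 of the main test; samples with the same number did not deviate together (correlation 0.01), so the numbers are not read as pairs. DESeq2 gave 2 lower and 2 higher of 66 members, with both lower ones past all 3 limits. limma on the batch-corrected values gave 11 lower and 10 higher of 61 members, with 0 past all 3 limits as lower. The GC correction gave 1 higher and 4 lower of 56 members, with 3 of the lower ones past all 3 limits. Leaving out each library in turn gave 2 to 7 members lower, 0 to 6 higher, 2 to 5 past all 3 limits as lower and 0 to 2 as higher, and a median log2 fold change of −0.05 to 0.02. Over all tested genes, 891 were lower (9.74%) and 501 higher (5.48%) in the main test, and 589 (4.33%) and 217 (1.59%) in DESeq2. With the replicate block the numbers were 1220 (13.3%) and 852 (9.31%), and without the filter 1292 (9.49%) and 750 (5.51%). The GC correction gave 961 (10.5%) and 573 (6.26%). In limma, where fold changes are smaller, they were 1988 (19.1%) and 1793 (17.2%). Leaving out a library gave 414 to 1329 lower and 89 to 775 higher. Of the values of named genes under alternatives, 426 kept their direction and side of the threshold, 28 kept the direction and lost the call, 20 gained a call and 18, of 11 genes, changed sign, with 0 of these 18 past the adjusted p in either setting. With the GC correction the log2 change was −0.14 for Dnaja3, −0.10 for Hspd1, −0.0233 for Hsph1 and −0.0361 for Tcp1, and in limma it was −0.0001 for Hspa1b. The GC correction also moved the median of all tested genes, from −0.0011 to −0.0693. Leaving out each library gave −0.0661 to 0.0038 for Cct3, −0.14 to 0.17 for Dnaja3, −0.64 to 0.0109 for Hsp90aa1, −0.18 to 0.0008 for Hsp90ab1, −0.0728 to 0.0212 for Hspa14, −0.78 to 0.85 for Hspa1b, −0.0316 to 0.24 for Hspb2, −0.0514 to 0.17 for Hspd1, −0.0206 to 0.26 for Hspe1, −0.001 to 0.25 for Hsph1 and −0.10 to 0.40 for Tcp1. With 2 libraries per group, 1 library can decide a call, and changes below those of the intervals given could not be seen at this depth. Of the members, 22 were too low to test. The causes of the differences between alternatives were not tested.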
